A study of Mus musculus with 19 samples.

Results

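The genes of the oligodendrocyte lineage and of myelin were followed in mouse spinal cords labelled as lacking miR-146a and in motor neuron cultures in which miR-146a was blocked. The set holds 32 genes, chosen by symbol and all found among the 55487 genes of the count tables. They comprise 5 genes of oligodendrocyte precursors, 3 of committed cells that are leaving the precursor state, 2 regulators active along the whole lineage and 22 genes of mature, myelinating cells. Oligodendrocytes arise from proliferating precursors that carry the PDGF receptor alpha, pass through a brief committed stage marked by Gpr17, Bcas1 and Enpp6, and then wrap axons in myelin. Myelin is rich in galactolipids and in a few abundant proteins, among them myelin basic protein, and the white matter of the spinal cord is one of its main sites. miR-146a is a microRNA best known for restraining inflammatory signalling.

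Snap-frozen spinal cords gave 9 libraries labelled miR-146a KO (KO cords) and 4 labelled wild type (WT cords). Motor neurons differentiated from the wild-type mouse embryonic stem cell line RW.4 with retinoic acid and SAG, a Smoothened agonist, gave 3 libraries treated by lipofection with the miR-146a LNA (10 nM, 72 h) and 3 treated with a control LNA at the same dose and time. A locked nucleic acid (LNA) of this kind is a stabilised antisense oligonucleotide that pairs with a microRNA. The labels name no strain, age, pooling of animals or design of the knockout allele, and they tie the deletion to no cell type. All cultures come from 1 stem cell line. Nothing in the labels states that the libraries within a group are from different animals or culture dishes. The p-values therefore cover the spread among these libraries alone, which may be technical.

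Depth per library was 28163289 to 39577247 counts for cords and 40647549 to 65471742 for cultures. The 32 genes together made up 1.35% to 1.80% of a cord library and 0.0400% to 0.0429% of a culture library. The miR-146a precursor gave 1 count in KO cords and 0 elsewhere, so its loss could not be read. Pttg1, a neighbour of the miR-146a gene on chromosome 11 used here as the check of the labels, stood at 1.06 to 1.81 normalised CPM (counts relative to the scaled library total) in the KO cords numbered 1 to 8, against 14.9 to 17.4 in the 4 WT cords, but at 13.0 in the library labelled KO 9. That library also had 1947 normalised CPM of Sod1, against 191 to 263 in the other KO cords and 261 to 275 in WT cords. KO 7 carried skeletal muscle and connective tissue transcripts (Acta1 2564 and Col1a1 1149 normalised CPM). Cord values that turn sign or move by over 1.5 times without KO 7 and KO 9 are also given without them.

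The microRNA that was deleted or blocked and its close relative miR-146b carry the same seed, the stretch at bases 2 to 8 that pairs with targets. Their mature sequences are printed because the seed defines the sites searched for below, with the seed in capitals (RefSeq, GRCm38.p6). The miR-146a-5p sequence lies on the minus strand at chr11:43374435-43374456 and that of miR-146b-5p on the plus strand at chr19:46342790-46342811.
mmu-miR-146a-5p: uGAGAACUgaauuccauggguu
mmu-miR-146b-5p: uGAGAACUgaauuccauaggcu

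The 7 bases complementary to this seed, AGTTCTC, were searched on the transcript strand of annotated 3′ untranslated regions (GENCODE M21, GRCm38). They occurred in 6 of the 32 genes (18.75%) and in 2496 of all 21005 genes with such a region (11.9%). With an A after them (AGTTCTCA, which contains the 7-base match), they occurred in 1 of the 32 genes, Gpr17 (3.125%), and in 922 of all genes (4.39%). The other genes with a 7-base match were Vcan, Enpp6, Klk6, Ugt8a and Mbp. The matches of the 4 genes shown here lie within exons of the 3′ untranslated region, at chr13:89656983-89656989 (minus strand, 242 bases past the stop codon, Vcan), chr8:47093446-47093452 (plus, 247 bases, Enpp6), chr7:43831660-43831666 (plus, 13 bases, Klk6) and chr3:125866333-125866339 (minus, 877 bases, Ugt8a). They are printed in capitals with their flanks so that each can be read against the seed, and a match is a description of the letters only.
Vcan: ctaatttctttAGTTCTCtcaat
Enpp6: cttttctacatAGTTCTCtgctt
Klk6: atgagacatccAGTTCTCcccca
Ugt8a: agaacatttgcAGTTCTCcttgc

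The 2 materials stood far apart in the levels of these genes. On the deposited TPM scale, which divides by gene length and so allows genes to be compared, 31 of the 32 genes averaged 10 TPM or more in WT cords and 18 averaged 100 or more. Mbp was the highest at 2779 ± 440 TPM in KO cords and 2880 ± 486 in WT cords (SD, n = 9 and 4). It was followed by Trf, the iron carrier transferrin that oligodendrocytes make in quantity, at 1521 ± 377 TPM in KO cords and 1320 ± 204 in WT cords. The SD of Trf in KO cords covers its WT mean, and the values of Mobp (736 ± 127 TPM in KO cords and 670 ± 59.6 in WT cords) and Cnp (613 ± 77.0 TPM in KO cords and 692 ± 110 in WT cords) overlap each other, so the order of Mobp and Cnp is not separated by their spread. Vcan, the proteoglycan versican, was the lowest of the set in both cord groups, at 8.38 ± 2.71 TPM in KO cords and 5.44 ± 0.555 in WT cords.

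In the cultures, labelled as motor neurons, 16 of the 32 genes averaged under 1 TPM with the control LNA and 7 averaged 10 TPM or more. The leading genes were Cnp (91.8 ± 4.97 TPM with miR-146a LNA and 85.7 ± 5.80 with control LNA), the deacetylase gene Sirt2 (75.6 ± 4.72 TPM with miR-146a LNA and 85.6 ± 3.06 with control LNA) and the tetraspanin gene Tspan2 (55.3 ± 3.0 TPM with miR-146a LNA and 51.6 ± 4.08 with control LNA), all with n = 3 a group (SD). Sirt2 is also expressed by neurons. Several genes that define oligodendrocytes were at or near 0: Mal had no count in any of the 6 cultures, Opalin had 0 counts in miR-146a LNA cultures and 1 in control cultures, and Gpr17 had 3 counts in miR-146a LNA cultures and 1 in control cultures. Enpp6 had 3 counts in each group and Ermn 26 in each. Summed counts with miR-146a LNA against control LNA were 11 against 22 for Mag, 13 against 17 for Cldn11 and 18 against 37 for Mobp. Over the 3 libraries of a group, 3 counts each is the level up to which a gene cannot be told from absent, and it corresponds to 0.0458 to 0.0738 CPM in the cultures. Mbp was read at 16.4 ± 1.96 TPM with miR-146a LNA and 15.2 ± 1.11 with control LNA. The 10 motor neuron genes listed to check the label summed to 3534 to 3725 normalised CPM with miR-146a LNA and 3695 to 3740 with control LNA.

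**Figure D1:**
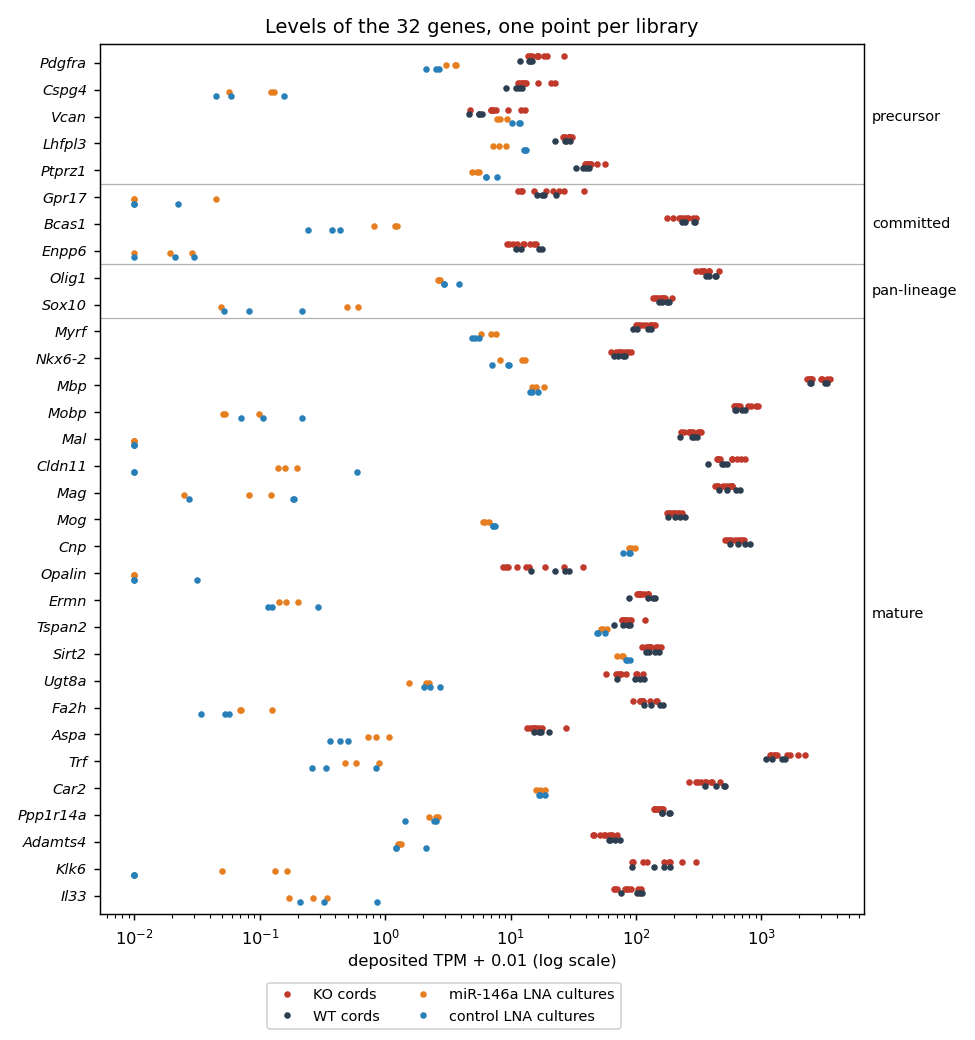
Deposited TPM plus 0.01 (log axis) of each of the 32 genes, 1 point per library, coloured by group and ordered by stage of the lineage. Cord values lie mostly between 10 TPM and the Mbp values near 2880 TPM, while 16 of the 32 genes average under 1 TPM in control LNA cultures and Mal lies at 0 in all cultures.

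The comparison of KO with WT cords asks how the lineage stands in the spinal cord without miR-146a. None of the 32 genes passed the test: edgeR called 0 of them at an adjusted p under 0.05 and 0 of all 22174 genes tested (0%). At an unadjusted p under 0.05, edgeR counted 8 of the 32, against 3177 of all genes (14.3%). Without KO 7 and KO 9 it counted 13 of the 32, against 3226 of 21573 genes tested. With every library limma counted 18 of the 32, against 4206 of 22174. Of the 8 counted by edgeR with every library, 1 was higher in KO cords, Vcan (7.53% of all genes were higher at this p). The other 7 were lower, namely Olig1, Cnp, Fa2h, Car2, Ppp1r14a, Adamts4 and Il33 (6.8% of all genes were lower). DESeq2 called 1 of the 32, Ppp1r14a, lower in KO cords (381 genes, 1.72% of those it tested), and limma with quality weights called 0 of the 32 (3 genes, 0.0135%). Of the 32 log2 fold changes 12 were positive, against 53.1% of all genes, and their median was -0.11, against 0.02 over all genes. Without WT 4 the number positive was 7, and the median was -0.04 without WT 2 and -0.07 without WT 1. In these bulk samples fewer cells of a type and less RNA per cell cannot be told apart.

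By stage of the lineage, all 5 precursor genes had positive log2 fold changes (median 0.29), the committed genes had 1 positive and 2 negative (median -0.21), both pan-lineage regulators were negative (median -0.18), and 16 of the 22 mature genes were negative (median -0.13). For none of the 32 genes did the 9 KO values and the 4 WT values separate without overlap, against 1.3% of all genes.

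Among the precursor genes, Vcan encodes a chondroitin sulphate proteoglycan of the extracellular matrix. It stood at 21.5 normalised CPM in the lowest, 33.8 in the median and 59.1 in the highest KO cord, against 25.1, 28.4, 25.7 and 23.0 in WT cords. Of the 9 KO cords, 8 lay above every WT cord and 1 lay below. The log2 fold change was 0.56 (SE 0.21), with an edgeR adjusted p of 0.296. The highest KO value was that of KO 7, and without KO 7 and KO 9 the log2 fold change was 0.38.

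Pdgfra, the receptor through which precursors are kept dividing, had a log2 fold change of 0.29 (SE 0.15, edgeR adjusted p = 0.382). Cspg4, the proteoglycan NG2, had 0.37 (SE 0.18), Ptprz1, a receptor phosphatase of precursors and astrocytes, 0.14 (SE 0.07), and Lhfpl3, a tetraspan membrane protein gene, 0.04 (SE 0.06). KO 7 held the highest value of 4 of the 5 precursor genes, and WT 4 the lowest WT value of all 5. Pdgfra and Vcan are also expressed by fibroblasts and Cspg4 by pericytes. All 8 fibroblast and meningeal genes listed had positive log2 fold changes (median 1.74, and 0.71 without KO 7 and KO 9), with summed levels of 74.6 to 2450 normalised CPM in KO cords and 75.8 to 101 in WT cords. Of the 12 endothelial and pericyte genes 11 were positive (median 0.23), with sums of 424 to 759 normalised CPM in KO cords and 450 to 529 in WT cords. No gene of these 2 lists was at 0, edgeR called none of them, and their part in the precursor values was not tested.

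Among the committed genes, Enpp6, a choline phosphodiesterase of newly forming oligodendrocytes, stood at 19.1 normalised CPM in the lowest, 26.0 in the median and 30.7 in the highest KO cord, against 35.3, 35.5, 24.4 and 24.2 in WT cords. The WT cords fell into a higher and a lower pair, and the KO values lay beneath the lower pair and in the gap above it, none reaching the higher pair. Its log2 fold change was -0.27 (SE 0.15, edgeR adjusted p = 0.405). Bcas1, which marks cells beginning to myelinate, had -0.21 (SE 0.12), and Gpr17, a receptor that holds cells at this stage, had 0.02 (SE 0.27) with KO values that spanned 2.93-fold. Gpr17 turned to -0.21 without KO 7 and KO 9.

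Of the pan-lineage regulators, Olig1 is a helix-loop-helix factor needed for maturation and repair. It stood at 207 normalised CPM in the lowest, 231 in the median and 313 in the highest KO cord, against 287, 311, 244 and 283 in WT cords. Of the 9 KO cords, 7 lay below every WT cord and 1, KO 2, above all of them. The log2 fold change was -0.22 (SE 0.09, edgeR adjusted p = 0.320). Sox10, the factor that drives myelin gene transcription, had -0.15 (SE 0.10).

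The mature regulators Myrf, the master switch of the myelin programme, and Nkx6-2, a homeobox factor of myelinating cells, had log2 fold changes of 0.03 (SE 0.11) and -0.01 (SE 0.10). Myrf stood at 270, 323 and 393 normalised CPM in the lowest, median and highest KO cord, against 333, 371, 274 and 279 in WT cords, so the WT values lay inside the KO range. The signs of Myrf and Nkx6-2 depended on the fit, Nkx6-2 having 0.0414 without KO 7 and KO 9.

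The 11 genes of the myelin sheath and its cytoskeleton had 3 positive and 8 negative log2 fold changes. Cnp, a phosphodiesterase that keeps cytoplasmic channels open in myelin, stood at 579 normalised CPM in the lowest, 721 in the median and 802 in the highest KO cord, against 847, 983, 740 and 704 in WT cords. A group of 4 KO cords lay below every WT cord and none lay above. Its log2 fold change was -0.23 (SE 0.10, edgeR adjusted p = 0.327). Mbp, which compacts the sheath, stood at 6103 to 9123 normalised CPM in KO cords and 6670 to 9427 in WT cords, with a log2 fold change of -0.11 (SE 0.12). Mag and Mog, on the innermost and outermost faces of the sheath, had -0.22 (SE 0.11) and -0.14 (SE 0.08), Ermn, an actin-binding protein, -0.16 (SE 0.10), Sirt2 -0.09 (SE 0.09) and the proteolipid Mal -0.04 (SE 0.09). Cldn11, the tight junction protein of myelin, had 0.18 (SE 0.14), Mobp 0.08 (SE 0.13) and Tspan2 0.06 (SE 0.09). Without KO 7 and KO 9 they had 0.0975, 0.14 and 0.00998.

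Opalin, a late membrane protein, varied most. It stood at 8.09 normalised CPM in the lowest, 12.3 in the median and 31.1 in the highest KO cord, against 24.9, 28.5, 21.1 and 14.5 in WT cords. In all, 6 of the 9 KO cords lay below every WT cord, while the library labelled KO 9 was the highest of all cords. The KO values spanned 3.84-fold, and the log2 fold change was -0.57 (SE 0.36, edgeR adjusted p = 0.464), and -0.76 without KO 7 and KO 9.

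Among the genes of lipid synthesis and metabolism, Car2, the carbonic anhydrase of oligodendrocytes, and Fa2h, which hydroxylates the fatty acids of myelin galactolipids, had the smallest p-values. Car2 stood at 203 normalised CPM in the lowest, 267 in the median and 315 in the highest KO cord, against 386, 400, 334 and 293 in WT cords. In all, 6 of the 9 KO cords lay below every WT cord and none above. Its log2 fold change was -0.41 (SE 0.11, edgeR adjusted p = 0.292), and it was -0.43 without KO 7 and KO 9. Fa2h stood at 90.7, 105 and 138 normalised CPM in the lowest, median and highest KO cord, against 145, 164, 125 and 119 in WT cords. Again 6 of the 9 KO cords lay below every WT cord, and the log2 fold change was -0.31 (SE 0.10, edgeR adjusted p = 0.292). Ugt8a, which makes the galactolipid galactosylceramide, had -0.30 (SE 0.15), Aspa, which frees acetate from N-acetylaspartate for lipid synthesis, -0.12 (SE 0.13), and Trf 0.15 (SE 0.18). Aspa had -0.22 without KO 7 and KO 9.

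Of the protease and signalling genes, Ppp1r14a encodes an inhibitor of myosin phosphatase and lies on chromosome 7 (GRCm38, 29289308 to 29293801). It stood at 58.7 normalised CPM in the lowest, 62.3 in the median and 70.7 in the highest KO cord, against 79.3, 82.5, 69.0 and 75.3 in WT cords. Of the 9 KO cords, 8 lay below every WT cord, and only the highest of them, KO 2, reached into the WT range. The log2 fold change was -0.26 (SE 0.06), the unadjusted edgeR p 0.0008 and the edgeR adjusted p 0.292, while DESeq2 gave an adjusted p of 0.0212. Without KO 7 and KO 9 it was -0.24. Adamts4, a protease of mature oligodendrocytes, had -0.28 (SE 0.10) and the alarmin Il33 -0.28 (SE 0.12). Klk6, a secreted serine protease, had 0.13 (SE 0.32), its KO values spanning 3.27-fold, and -0.0338 without KO 7 and KO 9.

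**Figure D2:**
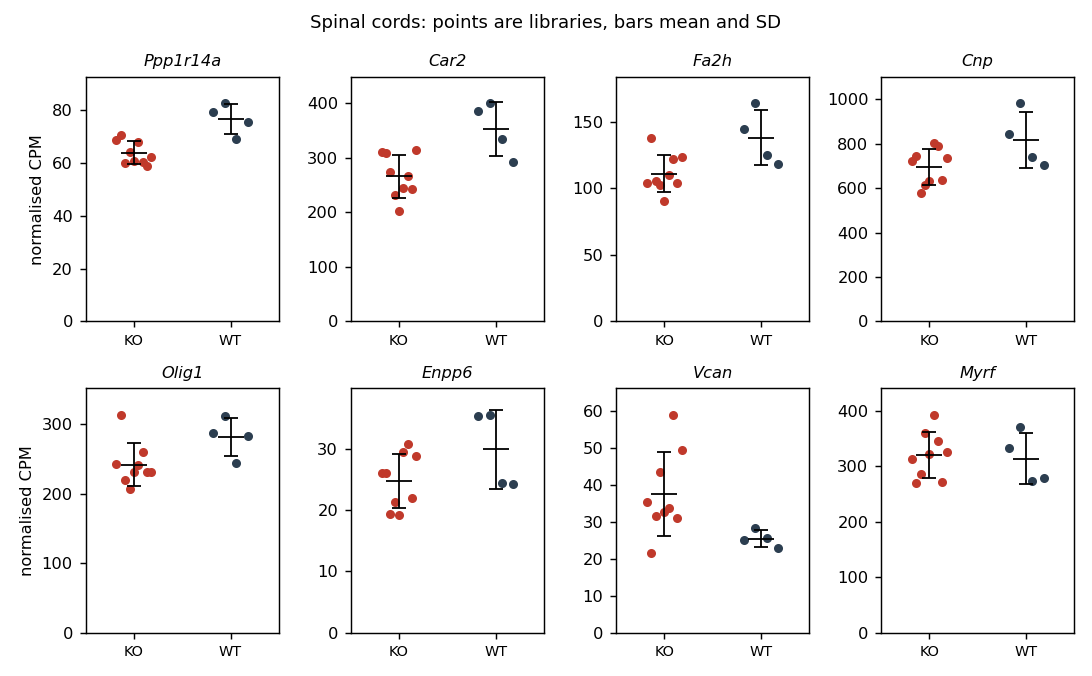
Normalised CPM (axis from 0) of the gene with the smallest p of each role in cords, and Fa2h, with KO cords left of WT cords. Points are libraries and bars are mean and SD (n = 9 and 4). The groups overlap in every panel, with 8 of 9 KO cords below all WT cords for Ppp1r14a and 8 of 9 above for Vcan.

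Libraries of 1 group also differed among themselves. Of the 22 mature genes, 6, 4, 16, 11, 12, 5, 5, 15 and 3 lay below every WT cord in KO 1 to KO 9, and 4, 0, 0, 3, 2, 7, 3, 0 and 4 lay above. KO 3 and KO 8 were thus low in most of the mature genes, and KO 9 and KO 2 in few. Among the WT cords, WT 2 held the highest value of 27 of the 32 genes and WT 4 the lowest of 15 of the 22 mature genes. The SD of log2 values was larger in KO than in WT cords for 21 of the 32 genes, with a median of 0.21 in KO cords and 0.17 in WT cords. Without WT 2 the number of the 32 genes at an unadjusted edgeR p under 0.05 was 3, against 1942 of all 22756 genes tested, which is near the same share. Without WT 4 it was 11, against 2424 of 22872.

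**Figure D3:**
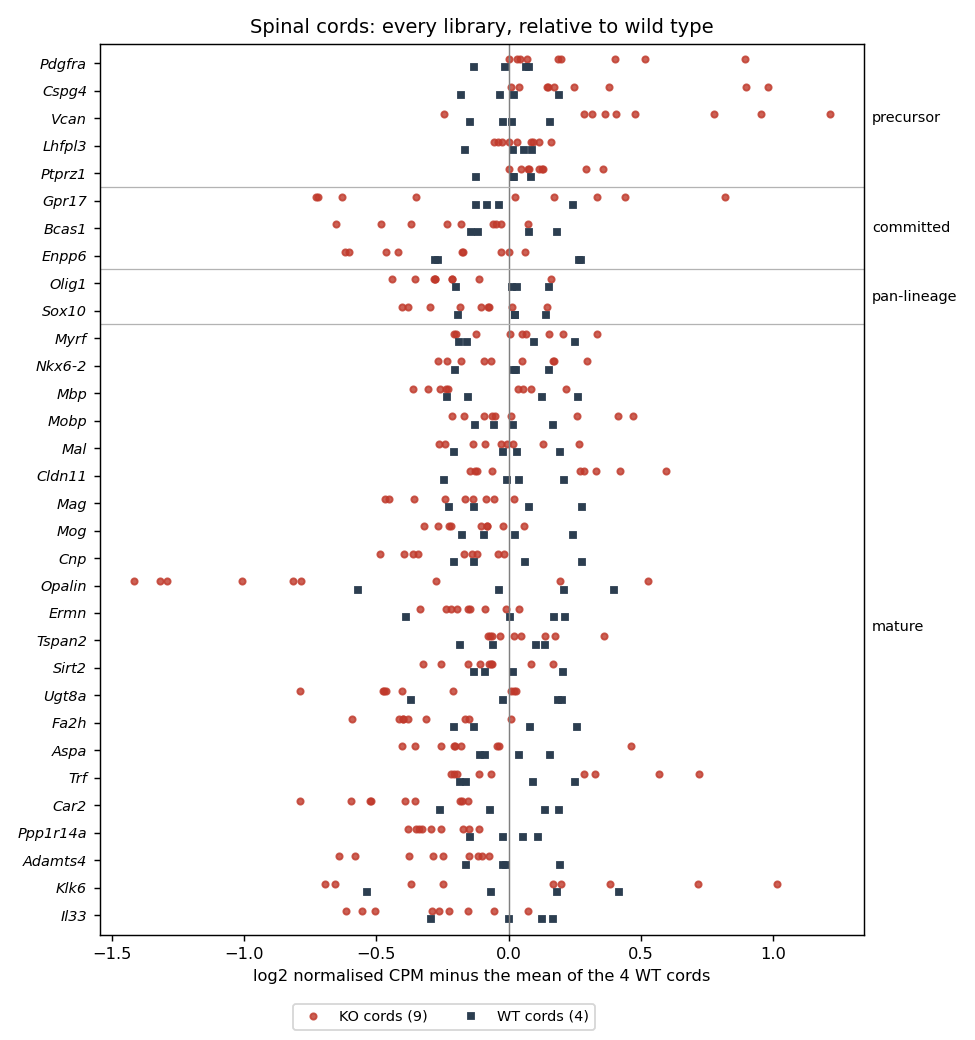
Log2 normalised CPM of every cord library minus the mean of the 4 WT cords, KO cords drawn above WT cords within each gene's line. Of the 5 precursor genes, Pdgfra, Cspg4, Vcan and Ptprz1 lean to the right in KO cords, while Lhfpl3 lies near 0 (log2 fold change 0.04). Of the 22 mature genes 16 have negative log2 fold changes, among them Mal (-0.04) and Nkx6-2 (-0.01), which also lie near 0. KO and WT points overlap for all 32 genes.

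Other genes of the lineage, from lists that do not share members with the 32, were counted in the same fit. Of 45 other oligodendrocyte and myelin genes 38 had negative log2 fold changes (median -0.15), and edgeR called none. At an unadjusted edgeR p under 0.05, 15 of the 45 were lower (6.8% of all genes) and 1 was higher (7.53% of all genes). DESeq2 called 1 of the 45, against 1.72% of all genes it tested. This was Sept4, a septin of the myelin cytoskeleton (-0.35, SE 0.09). Of 12 other lineage regulators 5 were negative, among them Olig2 (-0.28, SE 0.08) and Sox8 (-0.25, SE 0.07), and 7 positive, and of 19 other precursor and committed genes 12 were negative and 7 positive. Neither of these lists held a gene called by edgeR or DESeq2.

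Of 12 genes reported to be induced in oligodendrocytes under inflammation or injury, edgeR called 0 and DESeq2 called 3, higher in KO cords. Over all genes it tested, DESeq2 called 1.72%. Of the 12, 11 had positive log2 fold changes (median 0.89), against 53.1% of all genes, and 8 were higher at an unadjusted edgeR p under 0.05, against 7.53%. Complement C4b was at 104 normalised CPM in the lowest, 452 in the median and 1061 in the highest KO cord, against 153, 165, 145 and 172 in WT cords, and its log2 fold change was 1.85 (SE 0.53, edgeR adjusted p = 0.292, DESeq2 adjusted p = 0.00902). Of the 9 KO cords, 8 lay above every WT cord and 1, KO 2, below. These genes are shared with reactive astrocytes and microglia, whose lists leaned the same way. All 12 reactive astrocyte genes were positive (median 1.72, summed level 1221 to 7570 normalised CPM in KO cords and 1418 to 2242 in WT cords), as were all 15 activated microglia genes (median 2.15, sums of 2105 to 8329 in KO cords and 2195 to 2497 in WT cords). The 10 homeostatic microglia genes were all positive too (median 0.72, sums of 311 to 1054 in KO cords and 344 to 415 in WT cords). The 6 tested red blood cell genes were positive with the highest median of these lists (3.02, sums of 36.6 to 709 in KO cords and 22.7 to 44.5 in WT cords). DESeq2 called all 6, and edgeR called 0 of them with every library and 2 without KO 7 and KO 9. No gene of these lists was at 0, and their part in the reactive oligodendrocyte values was not tested.

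Schwann cells, which make the myelin of peripheral nerves, share some genes with oligodendrocytes. All 11 tested Schwann cell genes had positive log2 fold changes (median 0.48, and 0.22 without KO 7 and KO 9), with sums of 158 to 779 normalised CPM in KO cords and 166 to 340 in WT cords. No Schwann cell gene listed was at 0, edgeR called none of them, and their part in the values of the myelin genes was not tested. Of 14 neuronal genes 12 were negative in KO cords (median -0.20, and -0.12 without KO 7 and KO 9). They summed to 8212 to 10479 normalised CPM in KO cords and 10141 to 11654 in WT cords. The part of the neuronal genes in the values of the mature genes was not tested. Of 10 astrocyte genes 6 were positive (median 0.07).

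In the cultures the comparison of miR-146a LNA with control LNA asks what blocking the microRNA does in motor neuron preparations, where the defining oligodendrocyte genes named above were at or near 0. Of the 32 genes 21 passed the filter on low counts. The 11 that did not were Gpr17, Enpp6, Sox10, Mobp, Mal, Cldn11, Mag, Opalin, Ermn, Fa2h and Klk6. Of these 21, 7 passed the test, against 1635 of the 19099 genes tested (8.56%). Bcas1, Aspa, Pdgfra and Myrf rose with miR-146a LNA (2.4% of all genes rose), and Lhfpl3, Vcan and Ptprz1 fell (6.16% fell). DESeq2 called the same 7 and Sirt2 (14.1% of the genes it tested), and limma called the same 7 (11.5%). Scaling by library size alone left the 7 calls and their directions in place. Of all genes called, 52.9% were lower with it and 72.0% with the scaling used.

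The precursor genes moved in opposite directions. Lhfpl3 stood at 6.16, 6.69 and 7.98 normalised CPM in miR-146a LNA cultures, against 10.95, 10.7 and 11.2 in control LNA cultures. The groups did not overlap, and the control values lay close together. Its log2 fold change was -0.65 (SE 0.13, edgeR adjusted p = 0.00309). Vcan stood at 35.6, 29.1 and 32.1 normalised CPM in miR-146a LNA cultures, against 45.4, 44.4 and 38.8 in control LNA cultures, again without overlap. It fell by 0.41 on the log2 scale (SE 0.09, edgeR adjusted p = 0.00493).

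Ptprz1 stood at 20.1, 20.5 and 18.6 normalised CPM in miR-146a LNA cultures, against 29.0, 23.7 and 24.0 in control LNA cultures. All treated values were lower, and control 1 stood above the other controls. The log2 fold change was -0.37 (SE 0.09, edgeR adjusted p = 0.0169), and without control 1 the adjusted p was 0.123. Pdgfra went the other way, at 9.59, 9.32 and 8.12 normalised CPM in miR-146a LNA cultures, against 7.07, 6.72 and 5.53 in control LNA cultures. Its log2 fold change was 0.48 (SE 0.14, edgeR adjusted p = 0.0375). Cspg4 was under 0.5 normalised CPM in every culture.

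Of the committed genes only Bcas1 passed the filter. It stood at 0.803, 1.21 and 1.21 normalised CPM in miR-146a LNA cultures, against 0.421, 0.366 and 0.230 in control LNA cultures, from 188 counts with miR-146a LNA and 57 with control LNA. Every treated value was above every control value, at a level far under that of the cords. The log2 fold change was 1.66 (SE 0.37, edgeR adjusted p = 0.00904). The pan-lineage regulator Olig1 stood at 1.51, 1.51 and 1.60 normalised CPM in miR-146a LNA cultures, against 1.68, 2.18 and 1.69 in control LNA cultures. Its groups did not overlap, which was so for 28% of all genes, and its log2 fold change was -0.26 (SE 0.24, edgeR adjusted p = 0.558). Sox10 had 49 counts with miR-146a LNA and 14 with control LNA, in values of 0.390, 0.469 and 0.0322 normalised CPM with miR-146a LNA against 0.0336, 0.165 and 0.0576 with control LNA, and was not tested.

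The regulator Myrf stood at 17.3, 15.5 and 13.2 normalised CPM in miR-146a LNA cultures, against 11.1, 11.6 and 12.7 in control LNA cultures. The lowest treated value lay just above the highest control value. The log2 fold change was 0.38 (SE 0.11, edgeR adjusted p = 0.0472). Nkx6-2 had a log2 fold change of 0.35 (SE 0.19, edgeR adjusted p = 0.282).

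No gene of the myelin sheath passed the edgeR test. Sirt2, with the smallest p of them, stood at 102, 104 and 95.1 normalised CPM in miR-146a LNA cultures, against 113, 109 and 118 in control LNA cultures. The groups did not overlap, the log2 fold change was -0.18 (SE 0.06), the edgeR adjusted p 0.0648 and the DESeq2 adjusted p 0.0470. Mog stood at 2.99, 2.77 and 2.74 normalised CPM in miR-146a LNA cultures, against 3.26, 3.39 and 3.22 in control LNA cultures, with a log2 fold change of -0.22 (SE 0.19). Mbp, Cnp and Tspan2 had log2 fold changes of 0.12, 0.10 and 0.10.

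Aspa stood at 1.68, 1.29 and 1.14 normalised CPM in miR-146a LNA cultures, against 0.555, 0.769 and 0.671 in control LNA cultures, from 225 counts with miR-146a LNA and 110 with control LNA. The groups did not overlap, and the log2 fold change was 1.03 (SE 0.31, edgeR adjusted p = 0.0456). The other lipid genes tested, Ugt8a, Trf and Car2, had log2 fold changes of -0.26, 0.43 and -0.02, that of Trf running from 0.13 to 1.13 when 1 library was left out. Among the protease and signalling genes, Il33 had the smallest p. It stood at 0.195, 0.121 and 0.258 normalised CPM in miR-146a LNA cultures, against 0.151, 0.238 and 0.652 in control LNA cultures, overlapping values with a log2 fold change of -0.85 (SE 0.62, edgeR adjusted p = 0.45), which was -0.0281 without control 3. Ppp1r14a and Adamts4 had 0.21 and -0.22. Klk6 had 7 counts with miR-146a LNA and 0 with control LNA, and Fa2h had 11 with miR-146a LNA and 5 with control LNA. Both are within or near the limit of 3 counts a library, and neither was tested.

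**Figure D4:**
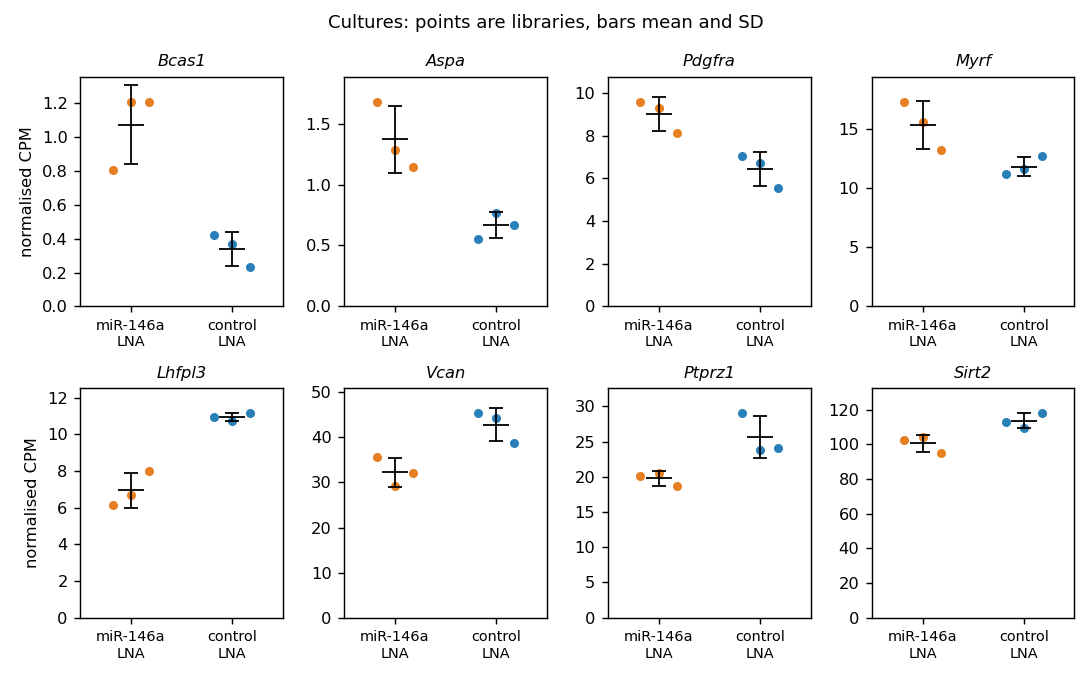
Normalised CPM (axis from 0) of the 7 genes called in cultures and of Sirt2, with miR-146a LNA left of control LNA. Points are libraries and bars are mean and SD (n = 3 each). The groups do not overlap in any panel, with Bcas1, Aspa, Pdgfra and Myrf higher and Lhfpl3, Vcan, Ptprz1 and Sirt2 lower in miR-146a LNA cultures.

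In all, 10 of the 21 tested genes had groups that did not overlap, against 28% of all genes. Bcas1, Lhfpl3 and Vcan stayed past the threshold in each of the 6 fits that left out 1 library and Ptprz1 in 5 of 6, but Pdgfra, Myrf and Aspa in 1 of 6. Leaving out a library gave 4 calls without miR-146a LNA 1, without miR-146a LNA 2, without control 2 and without control 3, 3 without control 1 and 9 without miR-146a LNA 3. Of the 7 called genes only Vcan holds a seed match, the one printed above.

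**Figure D5:**
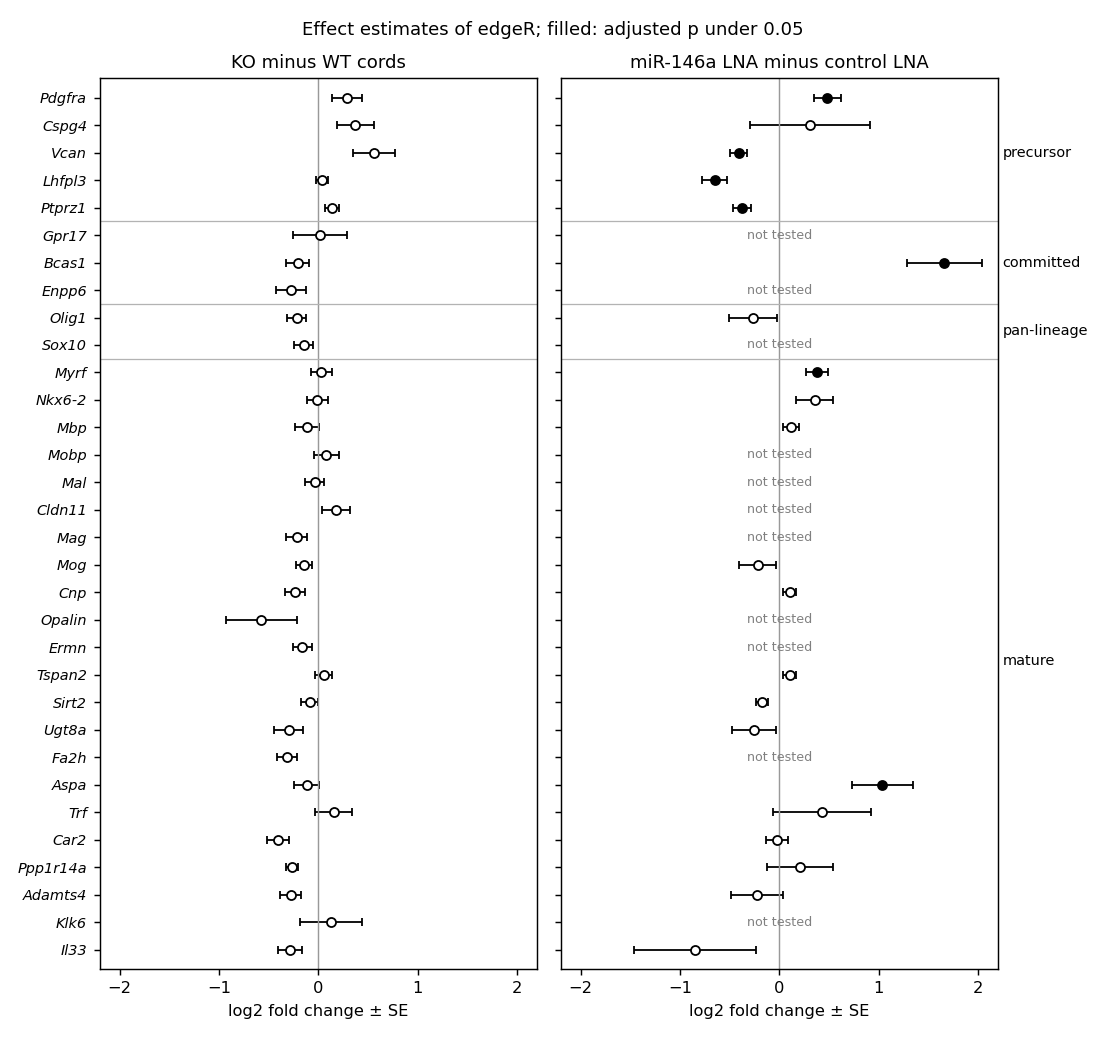
Log2 fold changes with their SE from edgeR for the 32 genes, in KO minus WT cords (left) and in miR-146a LNA minus control LNA cultures (right). Filled points have an adjusted p under 0.05, which no gene has in cords and 7 have in cultures, and 11 genes were not tested in cultures.

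Related genes in the cultures were counted from the same lists. Of 36 tested genes among 45 other oligodendrocyte and myelin genes, 4 rose and 2 fell. Over all genes 2.4% rose and 6.16% fell, which is the background of this and the next counts. Gsn, the actin-severing protein gelsolin, rose by 0.60 (SE 0.09) on the log2 scale and Sept4 by 0.31 (SE 0.08). Ndrg1 (-0.49, SE 0.10) and the cell adhesion gene Nfasc (-0.33, SE 0.06) fell. Of 17 tested genes among 19 other precursor and committed genes 3 fell and none rose, namely the matrix glycoprotein gene Tnr (-0.52, SE 0.08), Cacng4 (-0.29, SE 0.06) and the kinase gene Fyn (-0.22, SE 0.05). Their list summed to 654 to 699 normalised CPM in miR-146a LNA cultures and 772 to 816 in control LNA cultures. Of the other lineage regulators, Olig2 had a log2 fold change of 0.23 (SE 0.40).

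Markers of other cells moved in the same cultures. Of 10 tested neural progenitor genes 2 rose, the intermediate filament gene Nes (0.41, SE 0.08) and Top2a of dividing cells (0.72, SE 0.19), and the list summed to 266 to 289 normalised CPM with miR-146a LNA and 239 to 250 with control LNA. Of 14 neuronal genes 1 rose and 4 fell, with sums of 11677 to 12186 normalised CPM with miR-146a LNA and 11783 to 12339 with control LNA. Of the 10 motor neuron genes 2 rose, Chodl (1.75, SE 0.23) and Isl1 (0.31, SE 0.06), and 1 fell, Ret (-0.30, SE 0.05). Of 6 tested astrocyte genes 1 fell, Slc1a2 (-0.45, SE 0.12), with sums of 28.3 to 34.5 normalised CPM with miR-146a LNA and 34.3 to 36.0 with control LNA. Of 8 tested Schwann cell genes 1 rose, Ngfr (0.38, SE 0.10). Ninj2, Pmp2 and Dbx1 of these lists had no count in either group. The part of progenitors, neurons and astrocytes in the 7 calls was not tested.

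The knockout effect in cords and the LNA effect in cultures share no libraries, and their difference was tested gene by gene as an interaction over all 19 libraries. It passed for 4 of the 32 genes, against 423 of 24152 genes tested (1.75%). All 32 genes entered this fit, though 11 of them did not pass the low-count filter in the cultures alone. Those 11 entered through their cord counts, so their LNA effect was hardly measured. The 4 genes that passed are among the 21 tested in cultures. The 24152 genes were filtered in the same way. Lhfpl3 differed by 0.72 on the log2 scale (knockout effect minus LNA effect, SE 0.12, edgeR adjusted p = 0.00393) and Ptprz1 by 0.53 (SE 0.11, adjusted p = 0.0170), both having a small positive value in cords and a fall in cultures. Bcas1 differed by -1.86 (SE 0.30, edgeR adjusted p = 0.00291, limma adjusted p = 0.179) and Aspa by -1.12 (SE 0.24, adjusted p = 0.0181), both having a small negative value in cords and a rise in cultures. The edgeR fit shares 1 spread per gene between cords and cultures. For Lhfpl3, Bcas1 and Aspa its SE was below that of the LNA effect alone (0.13, 0.37 and 0.31), though not for Ptprz1 (0.09). The edgeR p-values of the difference may therefore be too small. Vcan, at 0.56 in cords and -0.41 in cultures, differed by 0.99 (SE 0.30, edgeR adjusted p = 0.117). It was called by DESeq2 (adjusted p = 0.0237) and by limma (0.0145), and by edgeR without KO 2 (0.0290) and without KO 7 and KO 9 (0.0348). DESeq2 also called Sox10, which had 49 counts with miR-146a LNA and 14 with control LNA and did not pass the culture filter. The Sox10 call therefore rests on few culture counts. In all, DESeq2 called 6 of the 32 genes here, against 916 of 18057 genes. Pdgfra was positive in both materials and Myrf close to 0 in cords, and their differences of -0.17 (SE 0.23) and -0.32 (SE 0.17) did not pass the edgeR test. Leaving out 1 library gave 2 to 5 calls, the fewest without miR-146a LNA 1 and without control 1, where Ptprz1 and Aspa were not called (Ptprz1 also not without miR-146a LNA 3), and 5 genes were called without KO 7 and KO 9. Scaling by library size alone gave 46.6% lower among all calls of the interaction, against 28.4% with the scaling used.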

How the data were processed

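The 32 genes and the supporting lists were chosen with earlier results of these data known, so their counts are descriptions. Per the submitters' processing notes and design text, reads from ribosome-depleted RNA were aligned with STAR 2.7.9a1 (GRCm38) and uniquely aligned, unambiguous reads were counted per gene with featureCounts. Neither the strand setting nor the treatment of duplicates was stated, so genes that overlap another gene are uncertain. The authors deposited whole-number counts, which every test used. The authors deposited CPM and FPKM columns, which were checked for their unit only, while levels between genes were read from TPM values as deposited. The depth per library stands in the report, and a count of 3 is worth 0.0758 to 0.107 CPM in a cord library and 0.0458 to 0.0738 CPM in a culture library. Limits from counts cover counting error only.

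Libraries were grouped by their genotype or LNA label. Genes were tested with edgeR 4.0.16 (R 4.3.3; quasi-likelihood, robust) on the libraries of each comparison, using its default minimum for low counts, TMM scaling, and p-values adjusted over all genes tested (Benjamini-Hochberg, threshold 0.05). Normalised CPM is TMM-scaled CPM, and the SE of a log2 fold change was taken from the fold change and the F statistic. The interaction was fitted over all 19 libraries, with 1 filter and 1 spread per gene for both materials. Alternatives were limma 3.58.1 (voom, quality weights), DESeq2 1.42.0, other scalings, no filter, leaving out each library, leaving out KO 7 and KO 9, and a replicate block in cultures. The interaction without single libraries was chosen after seeing the data. Some results are not reported here. Genes were named by rule: full values for those called in any test, for the smallest p of each role and for those whose groups do not overlap. Scripts were tested on simulated data. No pair of libraries in a group matched within sampling noise (smallest chi-square per degree of freedom 6.42).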

Additional observations from a re-analysis of the deposited data

Results flagged for a closer look

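Among the 64 groups of cord values examined (32 genes in KO and in WT cords), 3 held a value far from the rest of its group by Dixon's test at the 95% level, where chance marks about 1 group in 20. All 3 were the highest value of the KO cords: Pdgfra at 82.8 normalised CPM in KO 7 (next 63.5), Olig1 at 313 in KO 2 (next 260), and Aspa at 46.5 in the library labelled KO 9 (next 32.9). KO 7 is the library with muscle and connective tissue transcripts, and KO 9 the one whose Pttg1 level goes against its label.

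For 4 genes the knockout effect in cords and the LNA effect in cultures differed by the interaction test of edgeR. That test shares 1 spread per gene between cords and cultures, so its p-values may be too small. The differences, knockout effect minus LNA effect, were 0.72 for Lhfpl3, 0.53 for Ptprz1, -1.86 for Bcas1 and -1.12 for Aspa on the log2 scale. With limma the difference of Bcas1 had an adjusted p of 0.179, and without miR-146a LNA 1 or control 1 those of Ptprz1 and Aspa were not called, that of Ptprz1 also not without miR-146a LNA 3.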

How the results depend on the processing

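In cords, 577 of 608 values of single genes under the alternatives kept their direction and their side of the threshold. The count of called genes was 0 in every edgeR and limma fit and 1 with DESeq2. Over all genes, against 0 calls with edgeR, DESeq2 called 381, limma 3 and edgeR without KO 7 and KO 9 8. Signs turned for 7 genes, whose log2 fold changes with every library ran from -0.04 (Mal) to 0.13 (Klk6). With limma, Gpr17 was -0.27, Klk6 -0.17, Myrf -0.0011, Tspan2 -0.0008 and Nkx6-2 0.0118. Without KO 7 and KO 9, Gpr17 was -0.21, Klk6 -0.0338 and Nkx6-2 0.0414. With library size scaling Nkx6-2 was 0.0147. Leaving out 1 library gave -0.0169 to 0.0787 for Lhfpl3, -0.12 to 0.10 for Gpr17, -0.0334 to 0.12 for Myrf, -0.0774 to 0.0374 for Nkx6-2, -0.11 to 0.0257 for Mal, -0.0064 to 0.10 for Tspan2 and -0.0289 to 0.27 for Klk6. The cause was not tested.

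In cultures, leaving out 1 library gave 3 to 9 called genes of the 32, and 778 to 1985 of all genes against 1635 with every library. With the replicate block 6 genes were called, Aspa having an edgeR adjusted p of 0.0555. Same-numbered cultures deviated with correlations of 0.04, -0.13 and 0.01, and differently numbered ones with -0.16 to 0.17. These values show no pairing by number, but 3 libraries a group are too few to exclude it. Car2 turned to 0.0113 with limma and 0.022 with library size scaling. Leaving out 1 library gave -0.0335 to 1.17 for Cspg4, -0.0734 to 0.0242 for Car2, -0.0075 to 0.35 for Ppp1r14a and -0.36 to 0.0829 for Adamts4. The interaction gave 2 to 5 calls without 1 library. Over all genes it gave 214 to 621 calls without 1 library, 916 with DESeq2, 971 with limma, 268 with no filter and 958 without KO 7 and KO 9, against 423. Bcas1 lost its call with limma (adjusted p = 0.179). The 8-base seed match occurred in 1 gene, against 6 with the 7-base match. At 7 or fewer counts a group, Klk6, Enpp6, Gpr17, Opalin and Mal allow no comparison in cultures.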

Other observations

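Within the KO cords, the 4 libraries with the most C4b were also the 4 with the most transferrin. C4b was at 1061, 1044, 845 and 591 normalised CPM in KO 1, KO 7, KO 4 and KO 6, and Trf at 2095, 2325, 1774 and 1721 in the same libraries, against 1213 to 1349 in the other 5 KO cords. The same 4 libraries held the highest Klk6 values, at 115, 141, 80.1 and 91.1 normalised CPM, though the library labelled KO 9 was close at 78.5. Mbp followed another order, with 9123 normalised CPM in KO 6 and 6103 in KO 7. This was seen in the data and was not tested.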
